A study of Mus musculus with 20 samples.

Results

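Processed pseudogenes are copies of spliced messenger RNAs that were reverse transcribed and inserted elsewhere in the genome, mostly by the enzymes of LINE-1 elements. A new copy carries no introns and no promoter of its own, and highly expressed housekeeping genes such as those of ribosomal proteins and Gapdh have left many copies in the mouse genome. Some copies are transcribed from a neighbouring or acquired promoter, and because a young copy is nearly identical to its parent gene, sequencing reads of the pair can be hard to assign.

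The 182 genes described here are the expressed processed pseudogenes of a hippocampal RNA sequencing series. They were chosen by annotation and by their measured counts: genes with the mm10 GENCODE biotype processed_pseudogene (146) or transcribed_processed_pseudogene (36) and a sum of at least 200 raw counts over the 20 libraries. That sum chose the members, so it is no finding. The count table held 55536 genes, 10237 of them of these biotypes, of which 4034 had a count in some library and 213 reached the sum. From the 213, 28 with a symbol starting with Rpl or Rps and 3 others were left out by name. The sums of the members nearest to the minimum were 200 for Gm12960, 201 for Gm8399 and 202 for Gm38158, and those just under it were 199 for Gm13416, 198 for Gm4149 and 197 for Gm14044.

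The libraries came from the hippocampus of male mice aged 12 weeks with the strain label C57BL/6J, either wild-type or Fkbp5 knockout. The protein FKBP5 works with HSP90 and dampens the glucocorticoid receptor. Mice were injected once into the abdomen, with saline or with lipopolysaccharide (LPS, from the outer membrane of bacteria, a standard trigger of inflammation) at 3 mg/kg, and the tissue was taken on day 7. Each of the 4 combinations of genotype and injection had 5 libraries. The labels name no Cre line and no knockout allele, and they do not say whether each replicate was a separate animal, so p-values measure the spread between these libraries.

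Total counts per library ranged from 16652992 to 27230202. Fkbp5 stood at 56.7 to 73.4 CPM (counts relative to the library's total, adjusted with edgeR's TMM factors) in the 10 wild-type libraries and at 25.1 to 35.99 CPM in the 10 knockout libraries, so the genotypes did not overlap. The libraries form 2 sets, replicates 1 and 2 of every group (8 libraries) and replicates 3 to 5 (12 libraries), which were recognised from the data and are not named in the labels. Mitochondrially encoded genes took 4.66 to 5.68% of counts in the first set and 8.41 to 11.4% in the second, and 23650 to 25237 and 21064 to 22247 genes were detected. All 8 markers of hippocampal excitatory neurons were detected, with a summed level of 5892 to 11072 CPM in wild-type and 5654 to 11511 CPM in knockout libraries. Markers of adjoining tissue were also all detected, at 137 to 260 and 143 to 221 CPM for 10 thalamus genes and 23.4 to 80.6 and 27.6 to 130 CPM for 5 choroid plexus genes.

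As a check of the biotype, each member was compared with the spliced transcripts of protein-coding genes. Of the 182 members, 151 had a single exon, and 131 matched the coding transcript of another gene at 90% identity or more over at least 50% of their length. That gene is called the parent below. Over the aligned bases, which need not span the member, the median identity of all best matches was 98.0%. There 19 members were identical to their match, and 3 members (D630033A02Rik, Gm6970 and Gm4076) had no match. The 51 members without a match of that quality fit the description of a processed copy less well, and no parent is named for them. To describe how far reads could be told apart, each member was cut into windows of 50 bases, and the share of windows that also occur in transcripts of other genes was taken. This share was at most 20% in 53 members, between in 69 and at least 80% in 60, and 20 members shared every window.

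The sequences below are those of the 6 members that were higher in knockout libraries, with the matching stretch of the parent. They show how few bases separate the members that carry the genotype result from their parent genes. Each line is 120 bases of the spliced transcript from GENCODE M21 (GRCm38, mm10), 5′ to 3′, taken within the parent's coding region, and capitals mark the bases at which copy and parent differ.

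Gm13394 is a copy of Gapdh, the glycolytic glyceraldehyde-3-phosphate dehydrogenase, with 1 differing base in an alignment of 1000. The stretch lies on the minus strand at chr2:28934264-28934383.
Gm13394: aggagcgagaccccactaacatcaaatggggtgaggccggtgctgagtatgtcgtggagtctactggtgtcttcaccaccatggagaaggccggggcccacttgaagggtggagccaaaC
Gapdh: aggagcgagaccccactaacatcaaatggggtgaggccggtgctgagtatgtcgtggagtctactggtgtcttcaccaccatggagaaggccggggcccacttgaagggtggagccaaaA

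Gm5527 is a copy of Hmgb1, a DNA-bending chromatin protein that also acts as an alarmin, with 7 differing bases and 3 gap positions in an alignment of 641. The stretch lies on the plus strand at chr1:52584836-52584955.
Gm5527: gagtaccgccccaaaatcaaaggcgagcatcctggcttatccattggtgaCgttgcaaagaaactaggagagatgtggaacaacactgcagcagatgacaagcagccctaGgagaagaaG
Hmgb1: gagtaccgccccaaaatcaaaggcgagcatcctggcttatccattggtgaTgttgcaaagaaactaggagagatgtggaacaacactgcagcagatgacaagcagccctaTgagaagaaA

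Gm13736 is a copy of Srp9, a subunit of the signal recognition particle, and did not differ from it at any of 253 bases. The stretch lies on the plus strand at chr2:87526145-87526264.
Gm13736: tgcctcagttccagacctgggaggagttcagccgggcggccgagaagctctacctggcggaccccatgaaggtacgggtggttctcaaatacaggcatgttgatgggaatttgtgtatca
Srp9: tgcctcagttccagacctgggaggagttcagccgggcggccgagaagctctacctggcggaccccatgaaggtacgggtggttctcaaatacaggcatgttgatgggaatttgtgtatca

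Gm12191 is a copy of Rpl30, a protein of the large ribosomal subunit, with 1 differing base in 348. The stretch lies on the minus strand at chr11:49678938-49679057.
Gm12191: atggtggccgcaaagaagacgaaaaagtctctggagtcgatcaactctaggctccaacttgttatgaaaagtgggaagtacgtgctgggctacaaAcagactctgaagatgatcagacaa
Rpl30: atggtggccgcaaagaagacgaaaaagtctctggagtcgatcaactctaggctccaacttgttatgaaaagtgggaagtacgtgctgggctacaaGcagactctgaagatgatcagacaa

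Gm6166 is a copy of Fabp5, a fatty acid binding protein, with 5 differing bases and 2 gap positions in 409. The stretch lies on the plus strand at chr9:57484223-57484342.
Gm6166: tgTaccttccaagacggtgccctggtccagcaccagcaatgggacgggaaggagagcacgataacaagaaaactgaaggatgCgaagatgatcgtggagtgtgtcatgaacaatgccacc
Fabp5: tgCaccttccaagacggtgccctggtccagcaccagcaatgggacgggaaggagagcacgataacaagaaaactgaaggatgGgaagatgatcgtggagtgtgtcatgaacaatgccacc

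Gm6206 is a copy of Cop1, a ubiquitin ligase, with 4 differing bases and 3 gap positions in 2202. It is annotated with 2 exons on the minus strand of chromosome X, so its stretch is given without coordinates.
Gm6206: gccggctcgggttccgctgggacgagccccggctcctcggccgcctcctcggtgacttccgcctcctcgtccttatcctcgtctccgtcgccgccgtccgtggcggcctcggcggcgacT
Cop1: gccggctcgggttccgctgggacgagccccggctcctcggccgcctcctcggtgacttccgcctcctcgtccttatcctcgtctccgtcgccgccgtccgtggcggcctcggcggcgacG

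Level per length differed widely among the members, from 0.157 to 145.7 CPM per kilobase with a median of 1.59. Gm14303, a copy of the small-subunit ribosomal protein gene Rps29, had the highest level at 145.7 CPM per kilobase. Gstp-ps, a copy of a glutathione transferase gene (best match Gstp2), followed with 44.5, and Gm10123, a copy of the cyclophilin gene Ppia, with 29.4. Gm1943 had 19.98, Gm13577 (Hmgb1) 18.2, Gm13736 (Srp9) 17.3, Gm6166 (Fabp5) 16.4, Gm7336 (Gapdh) 16.4, Tpt1-ps3 (Tpt1, the translationally controlled tumor protein) 15.97 and Gm10443 (Rps28) 14.5 CPM per kilobase. In Gm14303, Gm10123, Gm1943, Gm13736, Gm7336, Tpt1-ps3 and Gm10443 every window was shared with another gene. Across the 182 members, Spearman's rho of level per length was -0.58 with exon length and 0.33 with the share of shared windows; members share libraries and parents, so these are descriptions.

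The knockout comparison asked which members differ with the loss of Fkbp5 over both treatments. Of the 182 members, 178 passed the expression filter and were tested, and 6 of them were higher in knockout libraries and none lower at an adjusted p under 0.05 (edgeR quasi-likelihood test, Benjamini-Hochberg over 16419 genes). Over all genes tested, 0.439% were called, 0.292% higher and 0.146% lower. The sum of 200 counts was reached mainly through the knockout libraries for 4 of the 6 (Gm13394, Gm5527, Gm13736 and Gm6166, with fewer than 100 counts in wild-type), so the count of 6 is a description of chosen genes and supports no statement on the biotype. Altogether 18 members had fewer than 100 counts in the wild-type libraries and 6 had fewer than 100 in the knockout libraries. The median log2 difference of the tested members was -0.08, against -0.01 for all genes tested. Above 0 lay 70 of 178 members, and 7584 of all 16419 genes tested. In bulk tissue, fewer cells of a type and less RNA per cell cannot be told apart, and the levels below are averages over both.

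Gm13394, the Gapdh copy, separated the genotypes in all libraries, with each knockout value above each wild-type value. It lies on chromosome 2 (mm10, 28933610 to 28934609, minus strand) in an intron of Cfap77 on the same strand. After saline it stood at 0.274, 0.277, 0.320, 0.237 and 0.551 CPM in wild-type replicates 1 to 5 and at 4.89, 3.75, 2.60, 3.00 and 2.60 CPM in knockout. After LPS the values were 0.434, 0.0812, 0.129, 0.420 and 0.326 CPM in wild-type and 1.45, 2.71, 2.67, 3.10 and 2.45 CPM in knockout. No library of either treatment overlapped between the genotypes, and the lowest knockout library was LPS replicate 1. The log2 fold change was 3.23 ± 0.26 (SE, edgeR adjusted p = 1.67e-07), with 3.34 after saline (2.79e-05) and 3.13 after LPS (1.02e-04). Raw counts over all libraries were 633 in knockout and 58 in wild-type, a ratio per total count of 9.82 (95% exact interval 7.50 to 13.1, counting error only). Its host Cfap77, a cilium protein gene, had 0.0592 to 0.718 CPM in wild-type and 0.181 to 0.703 CPM in knockout and was not tested.

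Gapdh itself had 877 to 2058 CPM in wild-type and 826 to 2229 CPM in knockout (log2 fold change 0.12, adjusted p = 1.00). Of the 10 members whose best match was Gapdh, Gm13394 was the called one. The others had log2 fold changes of -0.58 (Gm12070) to 0.20 (Gm5345), including the copies with the highest level per length, Gm7336 (-0.15) and Gm5559 (-0.07). Gm12070, Gm2606 and Gm5559 matched Gapdh at 99.9% identity, as Gm13394 did.

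Gm5527, the Hmgb1 copy, exceeded the whole wild-type range in 9 of 10 knockout libraries. It lies on chromosome 1 (52584518 to 52585159, plus strand) and overlaps no other gene. Wild-type libraries held 0.0457, 0.138, 0.160, 0.0592 and 0.367 CPM after saline and 0.0394, 0.0812, 0.0645, 0.180 and 0.0652 CPM after LPS. Knockout libraries held 2.14, 0.298, 3.03, 2.62 and 3.37 CPM after saline and 1.85, 2.26, 2.89, 3.39 and 3.89 CPM after LPS. Saline replicate 2 was the low knockout library and lay within the wild-type range. Its log2 fold change was 4.44 ± 0.41 (SE, edgeR adjusted p = 1.99e-06), with 3.88 after saline (0.00132) and 4.99 after LPS (1.52e-04). By limma-voom the call over both treatments was kept (adjusted p = 0.00248) and those after saline (0.33) and after LPS (0.0544) were lost. Counts were 523 against 22, a ratio of 21.4 (14.0 to 34.4). Hmgb1 stood at 144 to 192 CPM in wild-type and 95.3 to 201 CPM in knockout (-0.19, adjusted p = 1.00). The other 3 Hmgb1 copies (Gm13577, Gm5518 and Gm46432) had -0.27, 0.48 and -0.27.

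Gm13736, the Srp9 copy, was near 0 in wild-type libraries and in 3 knockout libraries, and at 8.68 to 22.5 CPM in the other 7. It lies on chromosome 2 (87526145 to 87526397, plus strand) and overlaps no other gene. Wild-type libraries held 6 counts in all, at 0 to 0.0922 CPM. Knockout libraries held 10.1, 0.170, 0.144, 22.5 and 8.68 CPM after saline and 10.5, 12.3, 10.6, 12.2 and 0.125 CPM after LPS. Saline replicates 2 and 3 and LPS replicate 5 were the low ones, with 4, 3 and 2 counts, while the other knockout libraries had 157 to 360 counts. The low ones still lay above the wild-type maximum of 0.0922 CPM, a separation that rests on these few counts. The log2 fold change was 7.88 ± 1.05 (SE, edgeR adjusted p = 2.81e-04), and the count ratio was 278 (95% exact interval 128 to 760). It was 7.79 after saline (adjusted p = 0.0271) and 7.97 after LPS (0.0258). With the replicate number as a block the adjusted p was 0.183 after saline, 0.0946 after LPS and 0.00621 over both treatments, and by limma-voom it was 0.576 over both. The call after saline was lost without any 1 of the 5 wild-type saline libraries or knockout saline replicate 1, 4 or 5 (0.0558 to 0.118), and that after LPS without any 1 of the 5 wild-type LPS libraries or knockout LPS replicate 2, 3 or 4 (0.0538 to 0.112).

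Srp9, whose sequence Gm13736 repeats without a difference, had 64.0 to 99.3 CPM in wild-type libraries. In knockout libraries it had 49.6, 86.3, 82.1, 33.7 and 56.0 CPM after saline and 55.4, 66.1, 52.6, 51.9 and 88.9 CPM after LPS. The 3 knockout libraries with the least Gm13736 were those with the most Srp9, as the plot of each copy against its parent shows. The log2 fold change of Srp9 was -0.40 ± 0.15 (SE), which did not pass the threshold (edgeR adjusted p = 0.653).

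Gm12191, the Rpl30 copy, had counts in every library and a smaller difference. It lies on chromosome 11 (49678710 to 49679057, minus strand) in an intron of Cnot6 on the same strand, and all of its windows are shared with other transcripts. Wild-type libraries held 2.10, 1.34, 3.36, 2.43 and 2.20 CPM after saline and 1.54, 1.22, 2.58, 3.60 and 2.02 CPM after LPS. Knockout libraries held 2.61, 6.77, 6.88, 6.14 and 5.53 CPM after saline and 4.56, 7.98, 7.42, 5.70 and 6.46 CPM after LPS. The genotypes overlapped through knockout saline replicate 1 only. The log2 fold change was 1.43 ± 0.21 (SE, edgeR adjusted p = 0.00119), with 1.29 after saline (0.163) and 1.56 after LPS (0.0388). With the replicate block the value after saline passed as well (0.016). The call after LPS was kept without wild-type saline replicate 2 or 3, wild-type LPS replicate 4, knockout saline replicate 1 or knockout LPS replicate 1, and lost without any 1 of the other 15 libraries (adjusted p = 0.053 to 0.145). Rpl30 had 101 to 273 CPM in wild-type and 90.95 to 197 CPM in knockout (-0.32, adjusted p = 1.00), and Cnot6, a subunit of the deadenylase complex, had 52.0 to 68.9 and 42.96 to 66.7 CPM (-0.15, adjusted p = 1.00).

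Gm6166, the Fabp5 copy, had the highest single values of the 6, again in part of the knockout libraries. It lies on chromosome 9 (57483963 to 57484371, plus strand) in an intron of the gene model Gm18103, which had at most 0.0553 CPM in any library. Wild-type libraries held 19 counts in all, at 0.0394 to 0.237 CPM. Knockout libraries held 13.0, 37.7, 21.8, 20.4 and 0 CPM after saline and 14.0, 0.0343, 25.8, 0 and 0.0627 CPM after LPS. The 6 high libraries were saline replicates 1 to 4 and LPS replicates 1 and 3, and the other 4 held 2 counts together. Over both treatments the log2 fold change was 6.95 ± 1.19 (SE, edgeR adjusted p = 0.00556), and neither treatment alone passed (0.144 and 0.289). The call was lost by limma-voom (log2 fold change 4.08, adjusted p = 1.00), without wild-type LPS replicates 1 and 4 and knockout LPS replicate 1, the 3 thalamus-rich libraries (0.0768), and in replicates 3 to 5 alone (0.0953). Fabp5 had 63.2 to 124 CPM in wild-type and 59.1 to 114 CPM in knockout (-0.19, adjusted p = 1.00).

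Gm6206, the Cop1 copy on chromosome X (103163110 to 103165407), had a wild-type range of 0.856 to 1.74 CPM. Knockout libraries held 9.16, 1.36, 1.06, 4.73 and 3.65 CPM after saline and 8.11, 4.69, 4.96, 1.92 and 1.25 CPM after LPS. Saline replicates 2 and 3 and LPS replicate 5 lay within the wild-type range, and 7 of 10 knockout libraries lay above it. Its log2 fold change was 1.68 ± 0.36 (SE, edgeR adjusted p = 0.0368). This call was kept in 4 of 20 fits that left out 1 library (without knockout saline replicate 2 or 3 or knockout LPS replicate 4 or 5) and lost in the other 16 (adjusted p = 0.0576 to 0.0857), as it was by limma-voom (0.432), without the 3 thalamus-rich libraries (0.204) and without a filter on low counts (0.0572). Cop1 had 50.6 to 64.2 CPM in wild-type and 42.9 to 58.1 CPM in knockout (-0.09, adjusted p = 1.00).

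Of the 4 members that the filter kept out of the test, 2 were high in a few knockout libraries and low in all others; they are named after their values were seen. Gm6969, a copy of Cox7a2l (a factor of respiratory supercomplexes) on chromosome 12 with 97.7% identity, had 16.7, 39.5, 0.144, 0.0639 and 0 CPM in knockout saline and 17.3, 19.1, 0, 0.113 and 0.0627 CPM in knockout LPS libraries. Its high libraries were replicates 1 and 2 of both knockout groups, and the wild-type libraries held 13 counts in all, at most 0.245 CPM each. Gm5514, a copy of Ldhb (a lactate dehydrogenase subunit) on chromosome 19 with 98.0% identity, had 0.145, 0.256, 0.240, 12.6 and 0.0553 CPM and 0.290, 0.240, 16.1, 0.169 and 0.251 CPM, against at most 0.326 CPM and 34 counts in all in wild-type. Here knockout saline replicate 4 and knockout LPS replicate 3 were high. In a fit without a filter on low counts, Gm6969 had edgeR adjusted p = 0.129 and Gm5514 0.536. The other untested members, Gm6030 and Gm49594 (best matches Rps24 and Rpl15), had 130 and 83 counts in wild-type and 91 and 123 in knockout, and 185 and 184 of their counts were in replicates 1 and 2.

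**Figure D1:**
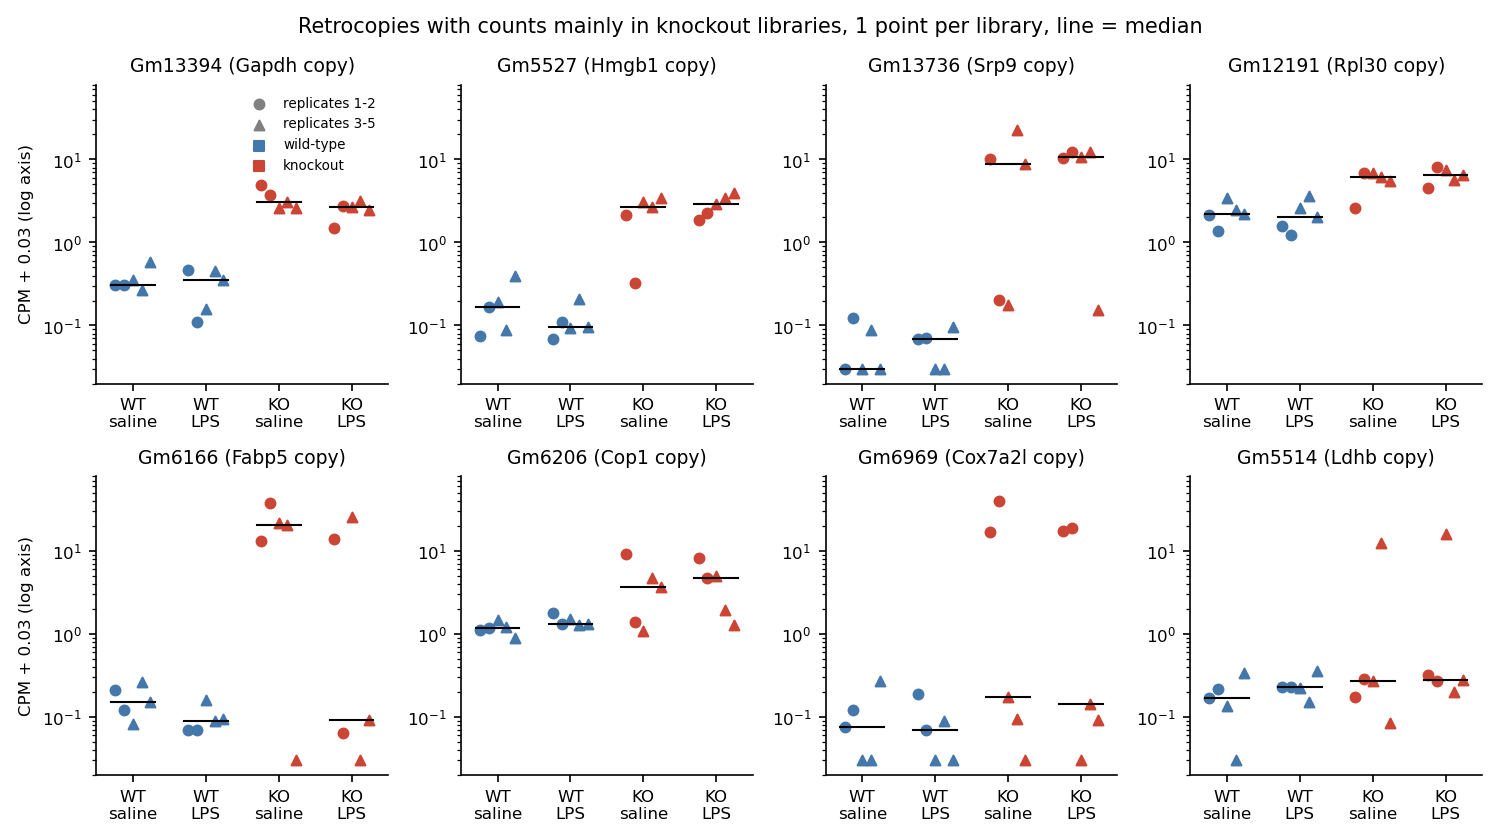
Level of the 6 called members and the untested Gm6969 and Gm5514 in each library, in CPM with 0.03 added on a log axis, by group; blue is wild-type, red knockout, circles replicates 1 and 2, triangles replicates 3 to 5, and lines group medians. Gm13394 separates the genotypes in every library. Gm13736, Gm6166, Gm6969 and Gm5514 are high in 7, 6, 4 and 2 of 10 knockout libraries and near 0 in the rest. The low knockout libraries of Gm13736 still lie above its wild-type range, at few counts.

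Knockout libraries thus differed among themselves at these loci. The standard deviation of log2(CPM + 0.1) over the 10 knockout libraries was 3.86 for Gm6166, 3.72 for Gm6969, 2.73 for Gm13736 and 2.40 for Gm5514. No tested member exceeded 2 over the 10 wild-type libraries, and 1.12% did over the 10 knockout libraries. Of all genes tested, 0.0914% exceeded 2 in wild-type and 0.0244% in knockout libraries. Gm6166, Gm6969, Gm13736 and Gm5514 reached the minimum sum through the knockout libraries in which they are high, so their spread there is given as a description. The median standard deviation was 0.47 in wild-type and 0.46 in knockout libraries for members, against 0.32 and 0.28 for all genes tested. Gm6206 lay above its wild-type range in the same 7 knockout libraries in which Gm13736 was high. In LPS replicate 4 it did so narrowly, at 1.92 CPM against at most 1.74 CPM in wild-type. Gm6166, Gm6969 and Gm5514 were each high in a different set of libraries. Knockout replicate 1 of both treatments was high for Gm13736, Gm6166, Gm6206 and Gm6969.

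**Figure D2:**
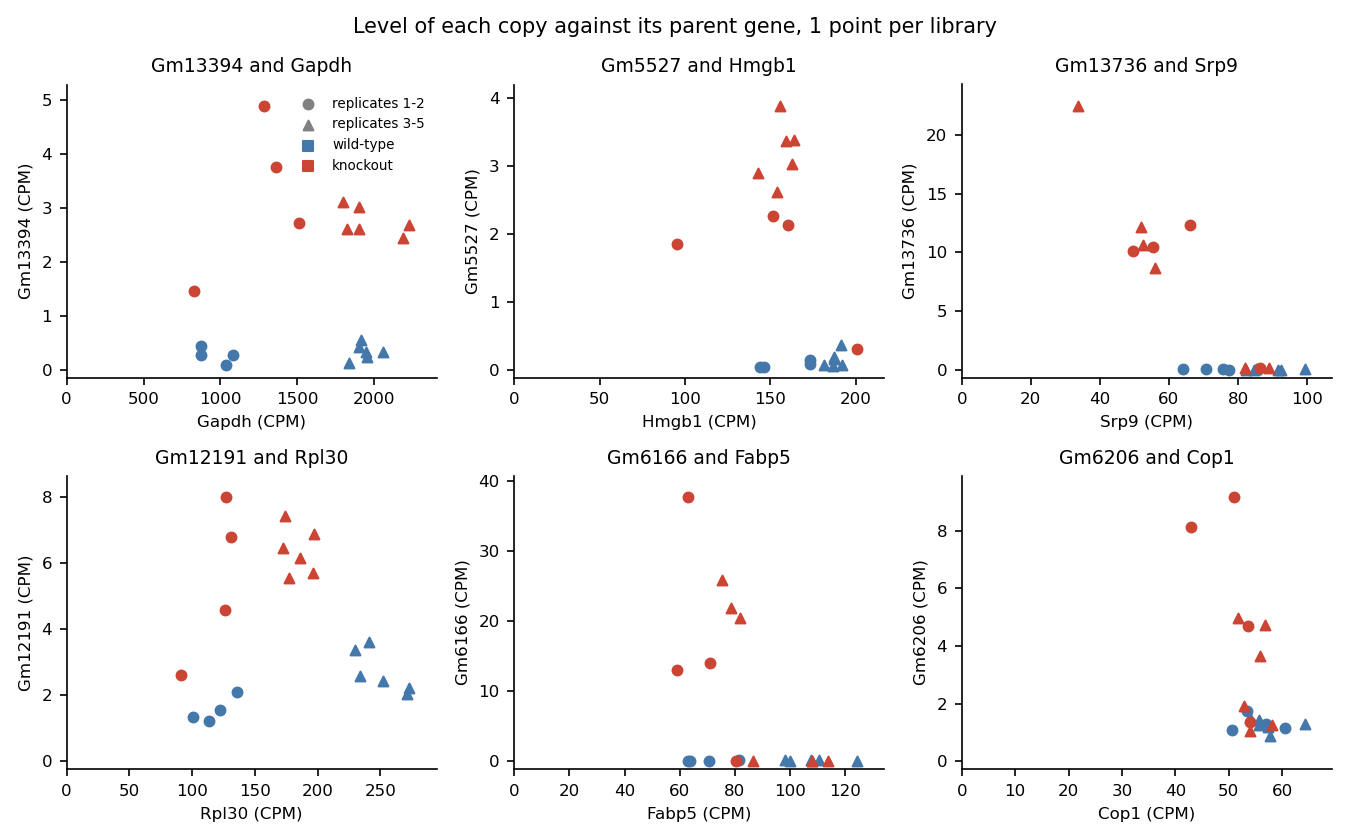
Level of each called copy (vertical axis, CPM) against its parent gene (horizontal axis, CPM), 1 point per library, with blue for wild-type, red for knockout, circles for replicates 1 and 2 and triangles for replicates 3 to 5. Parent ranges of the genotypes overlap in each panel; for Srp9 the 7 knockout libraries with high Gm13736 lie at 33.7 to 66.1 CPM.

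Features of the 6 called members that the rule did not use are given here as counts with no test. All 6 matched a parent at 90% identity or more over at least 50% of their length, 4 of them at 99% or more. So did 127 of the 178 tested members. Of the 59 tested members with at least 80% shared windows 4 were called, of the 66 between 2, and of the 53 with at most 20% none. None of the 36 members of the transcribed biotype was called. By position, 3 of the 17 tested members in an intron on the same strand and 3 of the 110 outside other genes were called. They lie on chromosomes 1, 2, 9, 11 and X. None of the 9 members on chromosome 17, which carries Fkbp5, was called, and so none of the 5 within 20 Mb of Fkbp5. With 3.37% of all tested members called, no call among so few members says little.

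By function of the best match, 45 members went with genes whose symbols start with Rpl or Rps, which encode ribosomal proteins, and 1 of 43 tested (Gm12191) was called. Their median log2 difference between genotypes was -0.15, with Gm14303 (Rps29) at -0.22 and Gm10443 (Rps28) at -0.35. Copies of glycolysis genes had 1 call of 11 tested (Gm13394), and copies of chromatin and HMG protein genes 1 of 11 (Gm5527), with H3f3a-ps1, a histone H3.3 copy, at -0.22 and Gm6421, another, at 0.14. No call was made among the 8 copies of chaperone and cyclophilin genes (Gm10123, a Ppia copy, at -0.21), the 7 tested of oxidative phosphorylation genes (Gm12338, a Cox7c copy, at -0.22), or the 7 of RNA-binding and splicing genes (Gm12696, an Hnrnpc copy, at 0.10). The same held for 6 of ubiquitin and proteasome genes (Gm1821, a Ubb copy, at 0.35), 6 of translation factors (Gm13456, an Eef1a1 copy, at -0.20), 5 of cytoskeleton genes (Gm12715, an Actg1 copy, at -0.10) and 2 of small GTPases and signalling adaptors.

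Within each library set the 6 members kept the direction of the genotype difference. They were chosen by their difference over these same libraries, so the shared direction is a description and supports nothing. In replicates 1 and 2 alone their log2 fold changes were 3.49 (Gm13394), 4.35 (Gm5527), 7.35 (Gm13736), 1.84 (Gm12191), 7.39 (Gm6166) and 2.17 (Gm6206), with edgeR adjusted p from 0.0988 to 0.706. Gm6969 was the called member there (8.03, edgeR adjusted p = 0.00104), among 0.0564% of all genes. It reached the minimum sum through the knockout libraries of this set, which held nearly all of its counts. Its call there is therefore a description and supports nothing. In replicates 3 to 5 alone the log2 fold changes of the 6 were 3.03, 4.41, 8.34, 1.22, 6.60 and 1.20 in the same order. Of these, Gm6166 (edgeR adjusted p = 0.0953) and Gm6206 (0.101) did not pass. In that set 15 of 168 tested members were called, 4 higher and 11 lower in knockout, against 8.1% of all genes (4.72% higher and 3.38% lower).

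Of the 11 members lower in knockout in replicates 3 to 5, 10 matched their parent at 99.5 to 100% identity. Gm10123 (Ppia) had 13.3 to 21.6 CPM in the 6 wild-type and 9.47 to 14.6 CPM in the 6 knockout libraries (log2 fold change -0.54, edgeR adjusted p = 0.0134). Gm14303 (Rps29) had 27.5 to 35.8 and 19.0 to 32.99 CPM (-0.47, 0.0268). Both ranges overlapped between genotypes. Gpx4-ps2, a copy of the lipid peroxide reductase gene Gpx4, had 2.90 to 3.16 and 0.959 to 2.57 CPM with no overlap (-0.71, 0.0317). Gm12070 (Gapdh) had 1.10 to 2.04 and 0.564 to 0.981 CPM, also with no overlap (-0.90, 0.0322). The share of all genes without overlap in this set was not counted. The others were Gm9843 (Fau, -0.59), Gm8430 (Rps27a, -0.64), Gm13577 (Hmgb1, -0.71), Gm12338 (Cox7c, -0.76), Tpt1-ps3 (Tpt1, -0.42), Gm7336 (Gapdh, -0.26) and 2810025M15Rik (-0.28). The last had 13.4% shared windows, while the other 10 of the 11 shared 83.9 to 100%.

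In replicates 1 and 2 the same 11 members had log2 fold changes of -0.04 to 0.39. Whether the genotype difference itself differed between the sets was tested in a model with group and set. None of 178 members passed (edgeR, adjusted p), against 0.122% of all genes. At an unadjusted p under 0.05 there were 28 members, and the share of all genes at that threshold was not counted. The smallest adjusted p of these 11 was that of Gm10123 (difference 0.78, adjusted p = 0.0846).

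**Figure D3:**
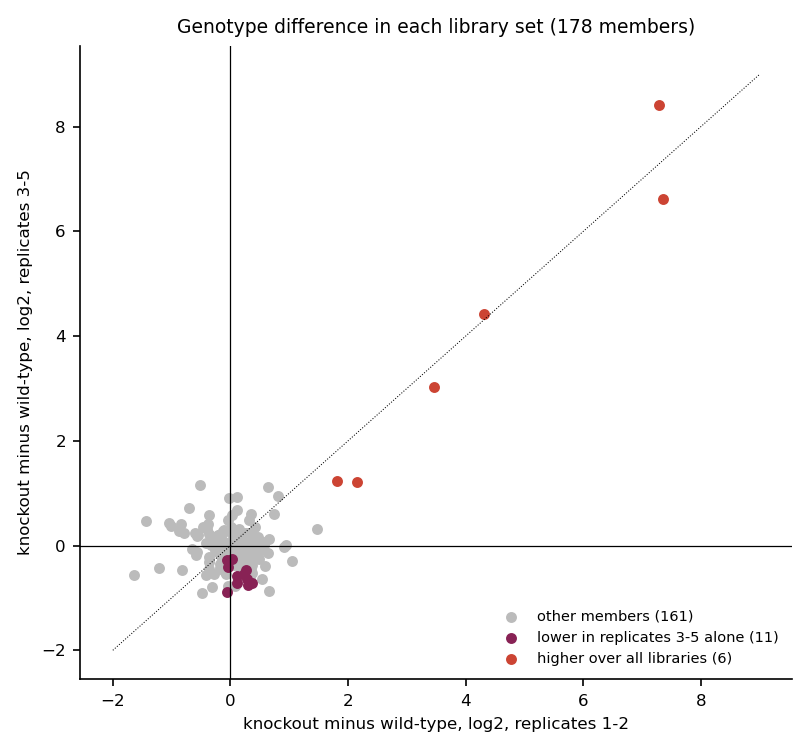
Log2 difference between knockout and wild-type for the 178 tested members in replicates 1 and 2 (horizontal) and in replicates 3 to 5 (vertical); the dotted line marks equal values. The 6 called members lie above 1 on both axes, and the 11 members lower in replicates 3 to 5 lie below 0 on the vertical axis and between -0.06 and 0.36 on the horizontal axis, both from the model with group and set.

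The summed level of all members, in CPM with the TMM factors, differed by genotype and set. It was 406 to 459 CPM in wild-type and 476 to 548 CPM in knockout libraries of replicates 1 and 2, and 451 to 480 and 423 to 490 CPM in replicates 3 to 5. Without the 6 called members and Gm6969 and Gm5514 the ranges were 403 to 455 and 418 to 459 CPM in replicates 1 and 2. In replicates 3 to 5 they were 447 to 474 and 399 to 432 CPM, where the genotypes then did not overlap. The members left out were chosen for high knockout values, while members lower in knockout stayed in. That choice lowers mainly the knockout sums, so the lack of overlap cannot be read apart from it. Members with at least 80% shared windows summed to 155 to 167 CPM in wild-type and 188 to 222 CPM in knockout libraries of replicates 1 and 2, and to 199.9 to 220.1 and 169 to 205 CPM in replicates 3 to 5. Without the called members among them these were 152 to 164, 161 to 194, 196 to 215 and 149 to 179 CPM. Members with at most 20% shared windows summed to 134 to 164 CPM in replicates 1 and 2 and 110.1 to 121 CPM in replicates 3 to 5, with genotypes overlapping in both. These sums are descriptions, with no test.

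**Figure D4:**
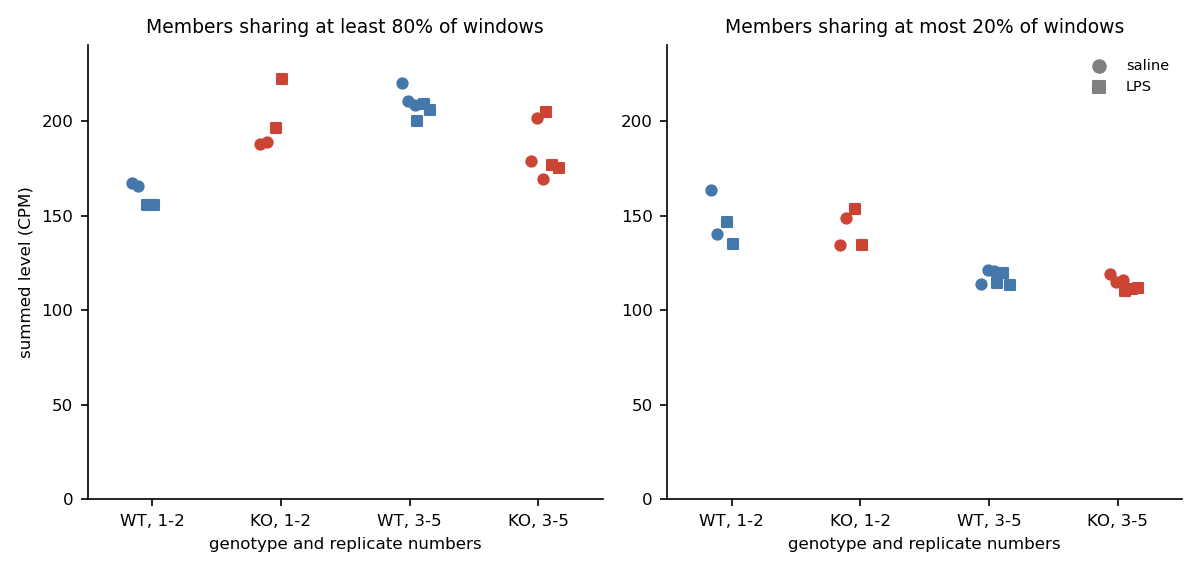
Summed level in CPM of members with at least 80% (left) and at most 20% (right) shared windows, 1 point per library, by genotype (blue wild-type, red knockout) and replicate numbers, circles for saline and squares for LPS. On the left, wild-type libraries lie below knockout libraries in replicates 1 and 2 and mostly above them in replicates 3 to 5, and on the right both genotypes are higher in replicates 1 and 2.

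Between the library sets, 82 of 178 members (46.1%) passed the threshold, 43 higher and 39 lower in replicates 1 and 2 (edgeR with a term for group). Over all genes tested 64.3% were called, 34.1% higher and 30.2% lower. Because the sets were recognised from these data, these calls describe the sets. The labels do not say what separates them. The 8 hippocampal excitatory neuron markers summed to 5654 to 8066 CPM in replicates 1 and 2 and to 8832 to 11511 CPM in replicates 3 to 5, with no overlap, and the mitochondrial share differed as given above. Set, depth, neuron markers and mitochondrial share cannot be told apart, and their part in the result was not tested. The median log2 difference was 0.04 for members and 0.03 for all genes.

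Of the 43 members higher in replicates 1 and 2, 18 were of the transcribed biotype. D630033A02Rik, a transcript that spans the microRNA gene Mirlet7i on chromosome 10, had 1.19 to 3.06 CPM (median 1.86) in replicates 1 and 2 and 0 to 0.384 CPM (median 0.143) in replicates 3 to 5, with no overlap (log2 difference 3.37 ± 0.32 SE). BC022960 on chromosome X had 1.43 to 6.81 CPM (median 2.69) against 0.111 to 0.7103 CPM (median 0.398), a difference of 3.07 ± 0.31. 3000002C10Rik on chromosome 9 had 4.34 to 7.77 against 0.652 to 2.45 CPM. Gm21926, a copy of the ferrochelatase gene Fech on chromosome 17, had 12.1 to 18.1 against 7.90 to 10.96 CPM (0.64 ± 0.08). None of these 4 overlapped between the sets. They were named for their small p, and the share of all genes without overlap was not counted.

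Gm6548, an Eef1a1 copy, went against its parent: it had 1.12 to 2.90 CPM in replicates 1 and 2 and 0.451 to 1.07 CPM in replicates 3 to 5 (1.47 ± 0.19), while Eef1a1, the elongation factor that brings aminoacyl-tRNA to the ribosome, had a log2 difference of -0.83. Gm4247, a copy of the chaperone gene Dnajb6, had 1.23 ± 0.15 (Dnajb6 -0.33); it lies in an intron of Zscan18 on the same strand, which had 0.68. The other members named by the smallest p were AC098880.2 (1.55), Magef1 (0.61), 4930431P19Rik (1.07) and C130030K03Rik (1.30).

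Of the 10 named members lower in replicates 1 and 2, 8 matched an expressed parent at 96.1% identity or more, and these parents were lower there too. Gstp-ps had 18.6 to 27.7 CPM in replicates 1 and 2 and 28.4 to 35.4 CPM in replicates 3 to 5, with no overlap (-0.45 ± 0.07 SE); its best match Gstp2 had at most 0.7103 CPM and -0.03. Gm12696, a copy of the splicing factor gene Hnrnpc, had 2.33 to 6.48 against 6.07 to 11.1 CPM (-0.93 ± 0.16, Hnrnpc -0.50). Gm2830, a copy of Rps24, had 0.181 to 0.978 against 0.621 to 1.54 CPM (-1.17 ± 0.26, Rps24 -0.95). Amd-ps4, a copy of Amd1 (a polyamine synthesis enzyme), had -1.01 ± 0.22 (Amd1 -0.51), and Gm9234, a Ppia copy, -0.81 ± 0.17 (Ppia -0.67). Gm7536 (Rpl27a copy) had -0.69 and its parent -0.84, Gm6421 (H3f3a copy) -0.59 and -0.72, Tdpx-ps1 (copy of the peroxiredoxin gene Prdx2) -0.53 and -0.44, and Gm16589 (Aida copy) -0.84 and -0.28. AA414768, with no close parent, had -0.49.

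By biotype, of the 36 members of the transcribed biotype 18 were higher and 5 lower in replicates 1 and 2, with a median of 0.45. Of the 142 tested members of the other biotype 25 were higher and 34 lower, with a median of -0.09. With at most 20% shared windows 24 were higher and 7 lower (median 0.38), in between 13 and 17 (-0.16), and with at least 80% 6 and 15 (-0.09). Spearman's rho between the set difference and the share of shared windows was -0.30 over 178 members, which share libraries and parents. Of the 43 tested members whose best match, close or not, was a ribosomal protein gene 6 were higher and 13 lower (median -0.29), while the 4 members with Rpl29 as best match lay above 0, 3 of them called. Whether these counts differ was not tested.

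**Figure D5:**
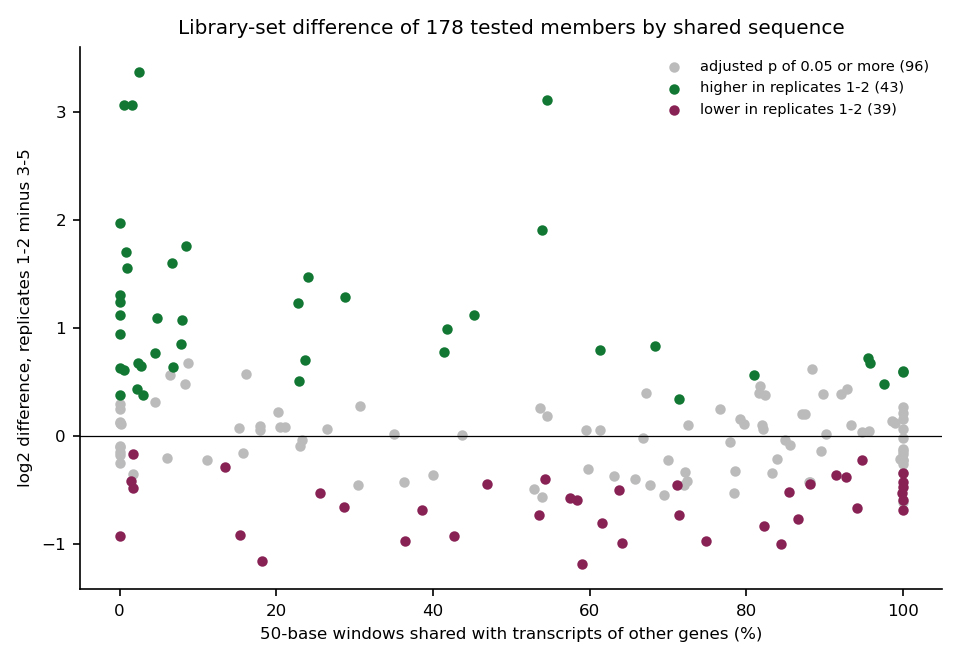
Log2 difference between replicates 1 and 2 and replicates 3 to 5 (vertical) against the share of 50-base windows that also occur in transcripts of other genes (horizontal, percent) for the 178 tested members; green members were higher and purple members lower at an adjusted p under 0.05. Of the 43 higher members 24, and of the 39 lower members 7, lie at 20% or less on the horizontal axis.

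LPS against saline over both genotypes asked whether members still differed 7 days after the injection. None of 178 members passed (edgeR; 6 at an unadjusted p under 0.05; DESeq2 and limma-voom also called 0), while 0.0426% of all genes did. The member with the smallest p was Gm10060, with a log2 difference of -0.70 ± 0.16 (SE, edgeR adjusted p = 0.361). The interaction of genotype and LPS also gave no member (edgeR; 1 at an unadjusted p under 0.05; DESeq2 and limma-voom 0) and no gene (0% of all). Knockout against wild-type called 3 members after saline, all higher (Gm13394, Gm5527 and Gm13736), where 0.171% of all genes were called and 0.134% were higher. After LPS it called 4, all higher (these and Gm12191), where 0.146% of genes were called and 0.116% were higher.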

How the data were processed

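Per the labels' protocols, RNA was extracted with the RNeasy Plus Mini kit and libraries were made with NEBNext Ultra reagents; per the submitters' processing notes, reads were processed with Trimmomatic 0.38, FastQC, MultiQC and featureCounts 1.6.0 on mm10. The aligner, strand setting and treatment of reads with several matches are not given in the sources used here, so reads of copy and parent, or of overlapping genes, may be assigned to either. The authors deposited raw counts per gene (unfiltered, not normalized) for 20 libraries of 4 groups.

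All (100%) gene IDs matched GENCODE M21 (GRCm38), the source of biotypes, positions and sequences. Counts were fitted once over all libraries in edgeR 4.0.16 (R 4.3.3; TMM, filterByExpr by group, robust quasi-likelihood F test; 16419 genes), tested on simulated data, in 6 comparisons at a Benjamini-Hochberg adjusted p under 0.05. Parents were the best matches among multi-exon coding transcripts (blastn 2.17.0, e-value 1e-10). Members and lists were chosen with earlier results of these data known. Named members are, per comparison, the 10 called with the smallest p in each direction, the 10 with the highest level per length, those nearest the minimum sum, and up to 3 per parent function. DESeq2 1.42.0, limma 3.58.1 (voom), other filters, library sets and left-out libraries were alternatives.

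After removal of group means, pairs of libraries with the same replicate number correlated at 0.23 to 0.835 (30 pairs), pairs of other numbers within a set at 0.168 to 0.644 and pairs across sets at -0.675 to -0.133. The labels do not say what a number stands for; every same-numbered pair exceeded 0.1, and so did other pairs within a set.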

Additional observations from a re-analysis of the deposited data

Results flagged for a closer look

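Among the 26 named members, 8 of 104 groups of 5 libraries held a library far from the other 4 (the gap to its nearest neighbour exceeded 0.71 of the range); chance alone gives about 1 in 20 such groups. Gm13736 stood at 0.125 CPM in knockout LPS replicate 5, against 10.5 to 12.3 CPM in the other 4 libraries of that group. Gm13394 had 0.551 CPM in wild-type saline replicate 5 (others 0.237 to 0.320), and Gm6166 had 0.129 CPM in wild-type LPS replicate 3 (others 0.0394 to 0.0652); both are at few counts. BC022960 had 5.85 CPM in wild-type saline replicate 1 (others 0.374 to 1.43) and 6.81 CPM in knockout LPS replicate 1 (others 0.164 to 1.85). AC098880.2 had 3.19 CPM in knockout saline replicate 1 (others 0.995 to 1.62), and Gm6548 had 2.90 CPM in knockout saline replicate 2 (others 0.703 to 1.12). Tdpx-ps1 was lowest in knockout saline replicate 1, at 3.40 CPM (others 5.11 to 5.53). The libraries of BC022960, AC098880.2, Gm6548 and Tdpx-ps1 all belong to replicates 1 and 2, the set in which these members differed. The causes were not tested.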

How the results depend on the processing

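Of 910 refits of the 33 named differences, 827 kept direction and call, 83 kept the direction and lost the call, and none reversed. Knockout against wild-type called 6 members (5 to 7 without any 1 library), 3 after saline (2 to 3) and 4 after LPS (2 to 4; 2 without wild-type LPS replicate 1, 2, 3 or 5 or knockout LPS replicate 2, 3 or 4). These 3 counts were 3, 1 and 2 by limma-voom and 0, 0 and 0 among members with at most 20% shared windows. In replicates 1 and 2 alone they were 1, 1 and 1, each time Gm6969, which reached the minimum sum through that set. DESeq2 called 5 after saline and 5 after LPS, replicates 3 to 5 alone 15 over both treatments, and leaving out the 3 thalamus-rich libraries (wild-type LPS replicates 1 and 4, knockout LPS replicate 1) gave 2 after saline, where Gm13736 was lost (0.0767), and 2 after LPS. Without those 3, the fit lost Gm6166 (adjusted p = 0.0768) and Gm6206 (0.204). By limma-voom Gm13736 (0.576), Gm6206 (0.432) and Gm6166 (1.00) were lost, as were Gm5527 after saline (0.33) and after LPS (0.0544). The replicate block gave 6, 3 and 3 members, and beside Gm13736 and Gm12191 changed no call. Between the sets 82 members were called (73 to 87 without any 1 library), 49 among members with at least 500 counts and 31 among those with at most 20% shared windows. LPS and the interaction gave 0 in each setting run. The causes were not tested. The planned count of windows over the genome was not run, because no genome sequence was used; windows shared with transcripts, chosen after seeing the data, replaced it, as was the test of the genotype difference between sets. Several members had few counts per library, which limits the precision of their levels.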
